A study of Homo sapiens with 9 samples.

Results

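The genes described are 10 inflammatory chemokines and cytokines in SW1783, a human astrocytoma cell line: CCL2, CXCL8, CXCL1, CXCL2, IL1A, IL1B, IL6, LIF, IL11 and CSF1. They were chosen by name, with earlier results of these data known. Each is the row of the count table whose Ensembl identifier carries its symbol. All 10 were found among the 60675 genes of the table, and all 10 passed the filter on low counts that left 18356 genes to test. RNA-seq was done after 24 h in 9 libraries of SW1783 cells. The 3 vehicle libraries received DMSO alone, at 0.1% by the sample labels and at 2% by the series' own design text, and the difference between these sources is not settled here. The other 6 libraries were treated with an ethanol extract of Poria Cocos or of Atractylodis Rhizoma at 20, 100 or 500 µg/mL, with 1 library for each extract and dose, and their labels give no DMSO percentage. The labels give no genetic change in any group. Nothing in them says that the 3 vehicle libraries came from separate cultures, so the p-values measure only a spread between libraries. That spread may be technical, and in fits over several doses it also holds differences between treated libraries. The titles place all 9 libraries in a batch named D, without saying what the batch covers. They number the vehicle libraries 1 to 3 and every treated library 2. The vehicle and treated libraries carry different series of sample codes, so a difference between all treated and all vehicle libraries cannot be told apart from a difference between those series.

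Chemokines are secreted proteins that draw leukocytes along a gradient. CCL2 attracts monocytes through CCR2. CXCL8 attracts neutrophils through CXCR1 and CXCR2, and CXCL1 and CXCL2 attract them through CXCR2. Interleukin 1 alpha and beta, encoded by IL1A and IL1B, act through IL1R1 and switch on NF-kB, which in turn raises transcription of many cytokine genes. IL6, LIF and IL11 belong to a family that signals through the shared receptor chain IL6ST to STAT3, and CSF1 supports the survival of macrophages and microglia. Astrocytes and glioma cells are known sources of most of these factors, and their genes are often regulated by NF-kB and AP-1 at the promoter and by AU-rich elements in the mRNA.

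RefSeq promoter sequences (GRCh38.p14) matched 7 of the 10 members: CXCL8, IL6, IL1B, IL1A, CXCL1, CXCL2 and IL11. Of these, the 4 with a called dose response are shown, with IL6 for comparison, because they moved in opposite directions. CCL2 and LIF, which also had a called dose response, and CSF1 were not matched. The 250 bases before the start are printed 5′ to 3′ in the direction of transcription. Capitals mark matches to GGNNTTTCC, a core of the NF-kB site, to TGANTCA, the AP-1 site, and to TATAAA, the TATA box.
CXCL8 (chr4:73740319-73740568, plus strand): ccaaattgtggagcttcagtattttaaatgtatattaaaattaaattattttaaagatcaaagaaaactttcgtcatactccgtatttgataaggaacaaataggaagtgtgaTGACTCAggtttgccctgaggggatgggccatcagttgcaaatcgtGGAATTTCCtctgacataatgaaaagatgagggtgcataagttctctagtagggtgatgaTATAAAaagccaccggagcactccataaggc
IL6 (chr7:22726950-22727199, plus strand): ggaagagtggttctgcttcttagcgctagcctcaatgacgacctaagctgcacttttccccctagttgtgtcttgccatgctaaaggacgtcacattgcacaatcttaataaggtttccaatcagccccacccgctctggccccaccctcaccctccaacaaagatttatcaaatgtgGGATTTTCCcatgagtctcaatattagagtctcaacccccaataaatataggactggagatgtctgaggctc
IL1B (chr2:112836780-112837029, minus strand): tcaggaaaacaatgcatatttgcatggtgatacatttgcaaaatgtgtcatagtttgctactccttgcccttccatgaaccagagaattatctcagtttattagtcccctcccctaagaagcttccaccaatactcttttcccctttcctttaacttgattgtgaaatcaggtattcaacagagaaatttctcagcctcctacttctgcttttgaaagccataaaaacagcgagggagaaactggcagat
IL1A (chr2:112784494-112784743, minus strand): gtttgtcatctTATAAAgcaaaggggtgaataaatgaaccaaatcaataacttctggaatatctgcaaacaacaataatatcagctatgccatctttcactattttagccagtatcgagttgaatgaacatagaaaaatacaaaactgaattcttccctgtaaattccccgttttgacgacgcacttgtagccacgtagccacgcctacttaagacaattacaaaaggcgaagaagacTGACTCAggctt
IL11 (chr19:55370464-55370713, minus strand): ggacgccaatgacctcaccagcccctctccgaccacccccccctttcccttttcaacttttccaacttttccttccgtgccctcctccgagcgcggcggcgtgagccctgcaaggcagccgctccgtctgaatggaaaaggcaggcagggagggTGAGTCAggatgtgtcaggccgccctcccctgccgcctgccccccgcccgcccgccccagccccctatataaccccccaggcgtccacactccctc
The search covered both strands of 300 bases, from 250 before to 50 after the start. GGNNTTTCC was found in 4 of the 7 promoters, against 6.26% of 35116 promoters: at -91 to -83 in CXCL8, at -72 to -64 in IL6, and at a pair of places each in CXCL1 (-78 to -70 and -53 to -45) and CXCL2 (-77 to -69 and -53 to -45). TGANTCA was found in 3 of 7, in CXCL8 (-137 to -131), IL11 (-96 to -90) and IL1A (-12 to -6, and 38 to 44 after the start), against 7.71% of all promoters. TATAAA was found in CXCL8 (-31 to -26) and in IL1A (-239 to -234), against 11.5%. TGACGTCA, the cyclic AMP response element, was found in 0 of 7, against 1.85%. In these windows CXCL8 held the letters of 3 motifs, IL11 those of the AP-1 site alone, and IL1B none. These matches are letters in a window and say nothing of binding in these cells.

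Depth lay between 40269708 and 48905602 counts per library, with 24614 to 25705 genes with a count and 5.38% to 6.97% of counts on mitochondrial genes. Of 8 astrocyte markers, 5 (GFAP, S100B, AQP4, SLC1A2 and ALDH1L1) were under 1 CPM (counts scaled to library size) in every library, so the defining markers of a mature astrocyte were near 0. SOX9, GJA1 and SLC1A3 were expressed, and the 8 mesenchymal markers, led by VIM, FN1 and COL1A1, summed to 18000 to 18500 CPM in vehicle and 15500 to 17000 in treated libraries. The astrocyte list summed to 357 to 366 CPM in vehicle and 293 to 346 in treated libraries. Of 10 myeloid markers, which would show the cells that respond to CSF1 and CCL2, 7 were under 1 CPM throughout, AIF1, LYZ, TYROBP and CD163 among them. The sum of the myeloid markers was 176 to 184 CPM in vehicle and 134 to 165 in treated libraries, nearly all of it CD68. PTPRC and CSF1R of the same list were also expressed, at 7.13 to 11.4 CPM and 2.27 to 3.40 CPM over the 9 libraries. Endothelial markers summed to 30.3 to 32.9 CPM against 33.3 to 41.4, and epithelial markers to 239 to 246 against 127 to 230, nearly all of that KRT18. The part of these shifts in the results was not tested.

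In vehicle cells the members spanned a wide range of expression. Per kilobase of the longest annotated transcript, IL11 was highest at 45.3 CPM per kb ± 0.871 (SD, n = 3), followed by CCL2 (38.1 ± 1.10), CSF1 (35.9 ± 1.00), LIF (14.2 ± 0.587) and CXCL8 (7.19 ± 0.574). IL1B (3.49 ± 0.403) and IL6 (3.45 ± 0.476) overlapped and could not be ordered. IL1A (0.424 ± 0.0247) and CXCL2 (0.347 ± 0.104) also overlapped, and CXCL1 was lowest at 0.223 ± 0.0368. Vehicle cells thus carried much mRNA for IL11, CCL2 and CSF1 and little for CXCL1 and CXCL2.

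CCL2 and IL11 were lower than vehicle with both extracts, and CXCL8, IL1B, IL1A and LIF rose over the treated Poria doses. Each extract was tested in 3 ways with edgeR's quasi-likelihood test: a trend from vehicle through the 3 doses (log2 change per 5-fold dose step), a slope over the 3 treated doses with vehicle kept apart, and the 500 µg/mL library against the 3 vehicle libraries. The last rests on 1 treated library, which is assumed to vary as the vehicle libraries do. The trends and slopes also take their spread from how single treated libraries depart from the fitted line. Where all treated libraries are compared with vehicle, differences between extracts and doses count as spread. All comparisons with vehicle share the same 3 libraries. A member is said to rise or fall where its adjusted p was under 0.05, adjusted over all 18356 genes. In bulk RNA, fewer cells that make a transcript and less of it per cell cannot be told apart.

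Against these thresholds a large part of the transcriptome moved, and the members are read against it. Because the members were chosen with earlier results of these data known, their counts are a description. For the Poria trend, 2 members rose (background 9.16% of genes) and 2 fell (background 11.6%). For the Atractylodis trend, 0 rose (background 8.49%; 0 at an unadjusted p under 0.05 as well, and 0 of 7 with an adjusted p in DESeq2) and 2 fell (background 10.5%). Between all 6 treated and the 3 vehicle libraries, 0 members rose (background 12.0%; 0 at an unadjusted p under 0.05, and 0 of 9 in DESeq2) and 2 fell (background 13.3%). Over the treated Poria doses, 4 members rose (background 1.2%) and 1 fell (background 1.25%). DESeq2 gave an adjusted p there for 4 members and called 3, CSF1 among them, so not all of these edgeR calls could be compared with it. Over the treated Atractylodis doses, 0 rose (background 1.5%; 0 at an unadjusted p under 0.05, and 0 of 4 in DESeq2) and 1 fell (background 2.54%). At Poria 500 µg/mL, 4 were above vehicle (background 14.4%) and 2 below (background 17.1%). At Atractylodis 500 µg/mL, 0 were above vehicle (background 14.4%; 0 at an unadjusted p under 0.05, and 0 of 4 in DESeq2) and 4 below (background 16.6%). When the fits used dose on its linear scale, 0 members were called in either trend with edgeR (6 for Poria and 1 for Atractylodis at an unadjusted p under 0.05), so each trend call below rests on the dose step. The members' median slope over the treated Poria doses was 0.29 on the log2 scale, against 0.00 over all genes tested, and over the treated Atractylodis doses it was 0.09 against 0.00.

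**Figure D1:**
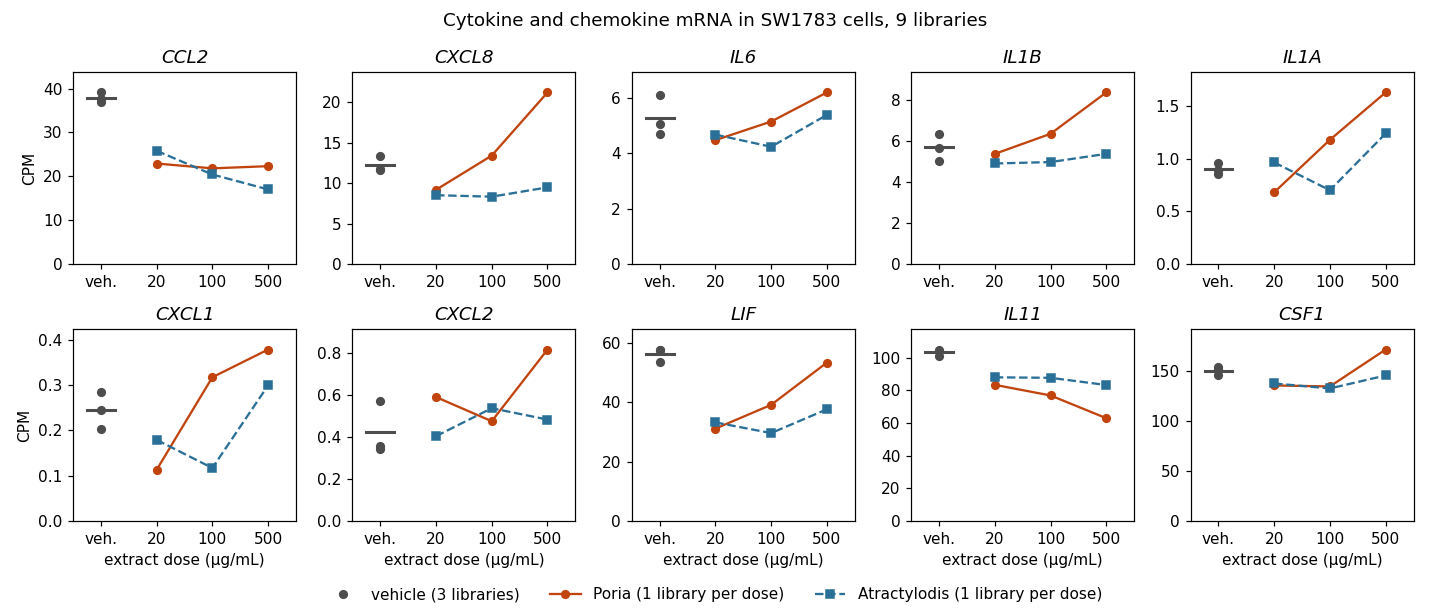
CPM (y axis, from 0) of each of the 10 genes in the 3 vehicle libraries (dots, with their mean as a line) and in the single library of each extract and dose (x axis, in µg/mL). CCL2 and IL11 lie below vehicle at every dose of both extracts, CXCL8 climbs from 9.17 to 21.2 CPM over the Poria doses and stays between 8.32 and 9.47 CPM over the Atractylodis doses.

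CCL2, the monocyte chemoattractant (ENSG00000108691, chromosome 17, 34255218 to 34257203, plus strand), was lower in every treated library. It stood at 39.1, 37.7 and 37.0 CPM in the vehicle libraries (37.9 ± 1.10, SD, n = 3), at 22.9, 21.8 and 22.3 CPM with Poria at 20, 100 and 500 µg/mL, and at 25.8, 20.4 and 17.0 CPM with Atractylodis. The treated and vehicle libraries did not overlap, the Poria libraries lay close together, and the Atractylodis libraries went down with dose. The change between treated and vehicle libraries was -0.81 ± 0.10 (log2, SE; edgeR adjusted p = 0.00018), lower in 6 of 6 libraries. At 500 µg/mL, CCL2 was 1.70-fold lower than the vehicle mean with Poria and 2.23-fold lower with Atractylodis. Over the treated doses alone the slope was -0.02 ± 0.04 for Poria (adjusted p = 0.88) and -0.30 ± 0.04 for Atractylodis (adjusted p = 0.00022), a fall from 25.8 to 17.0 CPM. The Atractylodis slope without its 20 µg/mL library was -0.26 (adjusted p = 0.21). The trends from vehicle were -0.28 ± 0.06 for Poria (adjusted p = 0.012) and -0.37 ± 0.06 for Atractylodis (adjusted p = 0.0053; -0.42 and 0.063 without the 500 µg/mL library). Its receptor gene CCR2 had 0 counts in all 9 libraries.

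CXCL8, which encodes the neutrophil chemoattractant interleukin 8 (ENSG00000169429, chromosome 4, 73740506 to 73743716, plus strand), rose over the treated Poria doses and not over the Atractylodis doses. It stood at 11.8, 13.4 and 11.6 CPM in vehicle (12.3 ± 0.979, SD, n = 3), at 9.17, 13.4 and 21.2 CPM with Poria and at 8.50, 8.32 and 9.47 CPM with Atractylodis. The lowest Poria dose lay below all vehicle libraries, the middle dose within them and the highest above them, while all 3 Atractylodis libraries lay below vehicle. CXCL8 at Poria 500 µg/mL was 2.31-fold the level at 20 µg/mL, 1.73-fold the vehicle mean and 2.24-fold the level at Atractylodis 500 µg/mL. The slope over the treated Poria doses was 0.61 ± 0.05 per step (edgeR adjusted p = 1.5e-06), and 0.55 (adjusted p = 0.066) without the 500 µg/mL library. Because the path starts below vehicle, the trend from vehicle was smaller, at 0.25 ± 0.09, and missed the threshold (adjusted p = 0.096). Over the treated Atractylodis doses the slope was 0.08 ± 0.06 (adjusted p = 0.54), and at Atractylodis 500 µg/mL CXCL8 was -0.37 ± 0.09 against vehicle (adjusted p = 0.0033). The receptor genes CXCR1 and CXCR2 had at most 2 and 1 counts in any library.

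The related neutrophil chemokines CXCL1 (ENSG00000163739, chromosome 4, 73869393 to 73871242, plus strand) and CXCL2 (ENSG00000081041, chromosome 4, 74097035 to 74099293, minus strand) were near the limit of detection. CXCL1 had 12, 8 and 10 counts in vehicle, 5, 14 and 19 with Poria and 8, 5 and 13 with Atractylodis. CXCL2 had 24, 14 and 14 counts in vehicle, 26, 21 and 41 with Poria and 18, 23 and 21 with Atractylodis. Both were highest at Poria 500 µg/mL, at 0.378 CPM for CXCL1 against 0.245 ± 0.0403 in vehicle and at 0.816 CPM for CXCL2 against 0.423 ± 0.126 (SD, n = 3). Neither passed the test in any comparison as first fitted. CXCL2 at Poria 500 µg/mL was at the threshold (0.94 ± 0.36 against vehicle, adjusted p just above 0.05), and it was called with the GC content and length correction (0.97, adjusted p = 0.047), without vehicle library 1 (1.21, adjusted p = 0.019), and, at 0.94, just under the threshold without Poria 100, Atractylodis 500 or Atractylodis 20 µg/mL. The slope over the treated Poria doses was 0.75 ± 0.35 for CXCL1 (adjusted p = 0.30) and 0.26 ± 0.22 for CXCL2 (adjusted p = 0.64), so a change of the size seen in CXCL8 was not resolvable for CXCL1 at this depth. CXCL1, CXCL2 and CXCL3 are close copies of each other, so the way reads were split among them is uncertain. CXCL3 itself went from 0.533 CPM ± 0.0981 in vehicle to 0.796 CPM at Poria 500 µg/mL and 0.224 CPM at Atractylodis 20 µg/mL, and did not pass the test (adjusted p = 0.15 for the Poria trend).

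The interleukin 1 genes rose with Poria and were not called with Atractylodis, and a difference between the extracts was not shown for IL1A and rested on the setting for IL1B. IL1B (ENSG00000125538, chromosome 2, 112829751 to 112836903, minus strand) stood at 5.66, 6.37 and 5.05 CPM in vehicle, at 5.38, 6.36 and 8.38 CPM with Poria and at 4.91, 4.98 and 5.38 CPM with Atractylodis. Poria 500 µg/mL lay above the other 8 libraries, which overlapped, at 1.47-fold the vehicle mean. IL1B rose by 0.18 ± 0.04 per step in the Poria trend (edgeR adjusted p = 0.0082) and by 0.32 ± 0.07 over the treated Poria doses (adjusted p = 0.017). Without the Poria 500 µg/mL library the trend was 0.08 (adjusted p = 0.47), and the slope over the treated doses was 0.24 (adjusted p = 0.99). The slope was also not called without the 20 µg/mL library (0.40, adjusted p = 0.26). Over Atractylodis doses the trend was -0.02 ± 0.05 (adjusted p = 0.77).

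IL1A (ENSG00000115008, chromosome 2, 112773915 to 112784590, minus strand), the membrane-bound and nuclear form of interleukin 1, rests on 30 to 82 counts per library. It stood at 0.853, 0.891 and 0.957 CPM in vehicle, at 0.681, 1.18 and 1.63 CPM with Poria and at 0.965, 0.701 and 1.24 CPM with Atractylodis. The Poria libraries ran from below the vehicle range to above it, and the Atractylodis libraries lay on both sides of it without an order by dose. IL1A rose by 0.29 ± 0.09 per step in the Poria trend (adjusted p = 0.027) and by 0.61 ± 0.16 over the treated Poria doses (adjusted p = 0.047). The trend was 0.16 (adjusted p = 0.54) without Poria 500 µg/mL, 0.30 (adjusted p = 0.052) without vehicle library 1 and 0.26 (adjusted p = 0.061) with a correction for GC content and length. The slope over the treated doses lost its call without any 1 of the 3 vehicle libraries (adjusted p = 0.058 to 0.066). It was 0.79 (adjusted p = 0.94) without Poria 500 µg/mL and 0.47 (adjusted p = 0.62) without Poria 20 µg/mL.

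**Figure D2:**
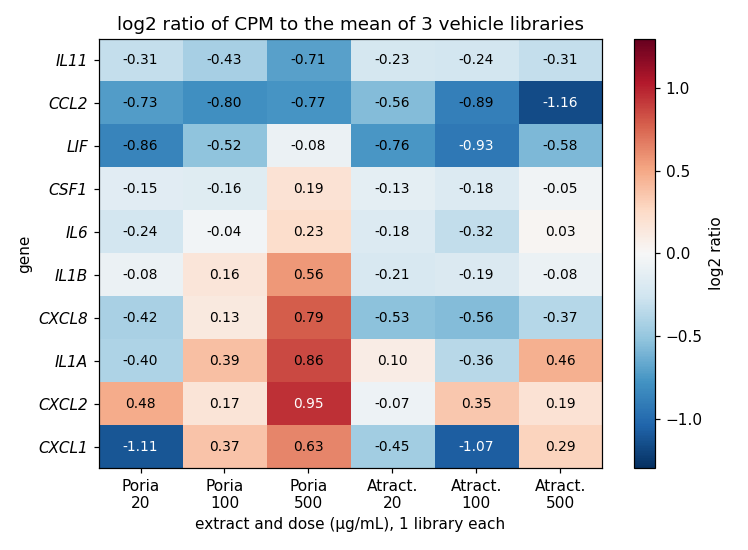
log2 ratio of each gene's CPM (rows) in each treated library (columns, extract and dose in µg/mL) to the mean of the 3 vehicle libraries, with the value in each cell and red for higher. The rows of IL11, CCL2 and LIF are blue throughout, and the Poria 500 µg/mL column holds the highest ratios of CXCL8 (0.79), IL1B (0.56) and IL1A (0.86).

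Among the IL-6 family, IL11 fell, LIF lay low and climbed again over the Poria doses, and IL6 itself was not called. IL11 (ENSG00000095752, chromosome 19, 55364389 to 55370463, minus strand), a cytokine linked to fibrosis and platelet formation, stood at 101, 104 and 105 CPM in vehicle (103 ± 1.99, SD, n = 3), at 83.4, 76.9 and 63.0 CPM with Poria and at 88.0, 87.7 and 83.3 CPM with Atractylodis. All 6 treated libraries lay below all 3 vehicle libraries, and each Poria library lay below the Atractylodis library of the same dose. The trend from vehicle was -0.22 ± 0.02 per step for Poria (edgeR adjusted p = 3.9e-06) and -0.10 ± 0.02 for Atractylodis (adjusted p = 0.0016). Over the treated doses alone the Poria slope was -0.20 ± 0.03 (adjusted p = 0.00081; -0.12 and 0.97 without Poria 500 µg/mL) and the Atractylodis slope -0.04 ± 0.03 (adjusted p = 0.53). At 500 µg/mL, IL11 was -0.71 ± 0.04 against vehicle with Poria (adjusted p = 7.1e-12) and -0.31 ± 0.04 with Atractylodis (adjusted p = 2.7e-06). The change over all treated libraries was -0.36 ± 0.10 (adjusted p = 0.023), and without vehicle library 1, 2 or 3 in turn the adjusted p was 0.059, 0.066 or 0.075.

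LIF, leukemia inhibitory factor (ENSG00000128342, chromosome 22, 30240447 to 30246851, minus strand), stood at 57.7, 57.6 and 53.6 CPM in vehicle (56.3 ± 2.33, SD, n = 3), at 31.1, 39.1 and 53.3 CPM with Poria and at 33.2, 29.6 and 37.6 CPM with Atractylodis. All treated libraries lay below all vehicle libraries, but Poria 500 µg/mL only just, at 53.3 against 53.6 CPM. LIF rose by 0.39 ± 0.06 per step over the treated Poria doses (edgeR adjusted p = 0.0054), and the slope over the treated Atractylodis doses was 0.09 ± 0.06 (adjusted p = 0.44). The Poria slope was 0.33 (adjusted p = 0.90) without its 500 µg/mL library and 0.45 (adjusted p = 0.22) without its 20 µg/mL library. The Atractylodis slope was called without its 20 µg/mL library (0.34, edgeR adjusted p = 0.03). The change over all treated libraries was -0.59 ± 0.18 and missed the threshold (adjusted p = 0.053). It was -0.72 (adjusted p = 0.0004) without Poria 500 µg/mL, and it was called with DESeq2 as well (-0.60, adjusted p = 0.0085). With Atractylodis at 500 µg/mL, LIF was -0.58 ± 0.05 against vehicle (adjusted p = 1.5e-08). LIF overlaps the opposite-strand genes LIF-AS1 and AC004264.1, which reached at most 1.40 CPM, and whether counting used strand is not given in the sources used here.

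IL6 (ENSG00000136244, chromosome 7, 22725884 to 22732002, plus strand), the classical inflammatory member of the family, stood at 5.05, 6.09 and 4.69 CPM in vehicle (5.27 ± 0.727, SD, n = 3), at 4.47, 5.14 and 6.19 CPM with Poria and at 4.67, 4.23 and 5.38 CPM with Atractylodis. The groups overlapped, and the highest library, Poria 500 µg/mL, was 0.1 CPM above the highest vehicle library. The slope over the treated Poria doses was 0.24 ± 0.09 (adjusted p = 0.16), and the Poria trend from vehicle was 0.07 ± 0.05 (adjusted p = 0.36). It overlaps STEAP1B and AC073072.1 on the opposite strand, which reached at most 1.22 CPM.

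CSF1, the macrophage growth factor (ENSG00000184371, chromosome 1, 109910242 to 109930992, plus strand), moved little at the lower doses and was highest at Poria 500 µg/mL. It stood at 152, 146 and 154 CPM in vehicle (151 ± 4.22, SD, n = 3), at 136, 135 and 172 CPM with Poria and at 138, 133 and 146 CPM with Atractylodis. The 4 libraries at 20 and 100 µg/mL lay below all vehicle libraries, and Poria 500 µg/mL lay above them. At that dose CSF1 was 0.19 ± 0.04 above vehicle (log2; edgeR adjusted p = 0.00051). The slope over the treated Poria doses was 0.17 ± 0.04 and missed the threshold (adjusted p = 0.072). It was called with DESeq2 (0.17, adjusted p = 0.0065) and with the GC content and length correction (0.18, adjusted p = 0.014). CSF1 was level from 136 to 135 CPM over the lower Poria doses, so this slope rests on the 500 µg/mL library. When that library was left out, 0 members were called over the treated Poria doses, so CSF1 was not. Without Poria 500 µg/mL, CSF1 over all treated libraries was -0.14 against vehicle (adjusted p = 0.009).

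The difference between the extracts was tested as the difference of their slopes, Atractylodis minus Poria. With slopes set from vehicle, 1 member differed upward (background 0.676%) and 0 downward (background 0.485%; 2 at an unadjusted p under 0.05, and 1 of 5 in DESeq2). The member was IL11 (0.12 ± 0.02, adjusted p = 0.012), whose fall was steeper with Poria, and it was not called without Poria 500 µg/mL (0.11, adjusted p = 0.37) or Atractylodis 500 µg/mL (0.10, adjusted p = 0.51). IL1B was close to the threshold at -0.20 ± 0.05 (adjusted p = 0.056), and was called without the low-count filter (adjusted p = 0.0012), with the GC content and length correction (0.047), without vehicle library 2 (0.045) and without Poria 20 µg/mL (0.027). CXCL8 was -0.37 ± 0.10 (adjusted p = 0.20; 0.044 with DESeq2). With slopes set by the treated doses alone, a fit added after the values had been seen, 0 members differed upward (background 0.594%; 1 at an unadjusted p under 0.05, and 0 of 3 in DESeq2) and 2 downward (background 0.567%). These were CXCL8 (-0.53 ± 0.08, adjusted p = 0.0018), which climbed with Poria and stayed level with Atractylodis, and CCL2 (-0.28 ± 0.06, adjusted p = 0.014), which declined with Atractylodis and stayed level with Poria. LIF was -0.30 ± 0.08 (adjusted p = 0.11), IL11 0.16 ± 0.04 (adjusted p = 0.060), IL1B -0.26 ± 0.11 (adjusted p = 0.28) and IL1A -0.42 ± 0.24 (adjusted p = 0.48), so a difference between extracts was not shown for these in this fit. LIF was called with DESeq2 (-0.30, adjusted p = 0.031), without the low-count filter (6.4e-06) and without Atractylodis 500 (-0.55, adjusted p = 0.0029) or 100 µg/mL (0.0024). IL11 was called with the GC content and length correction (0.19, adjusted p = 0.026) and without the low-count filter (0.043). It was also called without Poria 100 (0.042) or Atractylodis 100 µg/mL (0.036), and CSF1 without Poria 20 µg/mL (-0.31, adjusted p = 0.025). DESeq2 gave an adjusted p for 3 members here and called LIF alone. It gave none for CXCL8 or CCL2, so their calls rest on edgeR. CXCL8 was not called without Poria 500 µg/mL (-0.47, adjusted p = 0.33) or Atractylodis 20 µg/mL (-0.42, adjusted p = 0.24). CCL2 was not called without Poria 500 (-0.23, adjusted p = 0.75), Poria 20 (-0.33, adjusted p = 0.098), Atractylodis 500 (-0.32, adjusted p = 0.093) or Atractylodis 20 µg/mL (-0.24, adjusted p = 0.33).

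**Figure D3:**
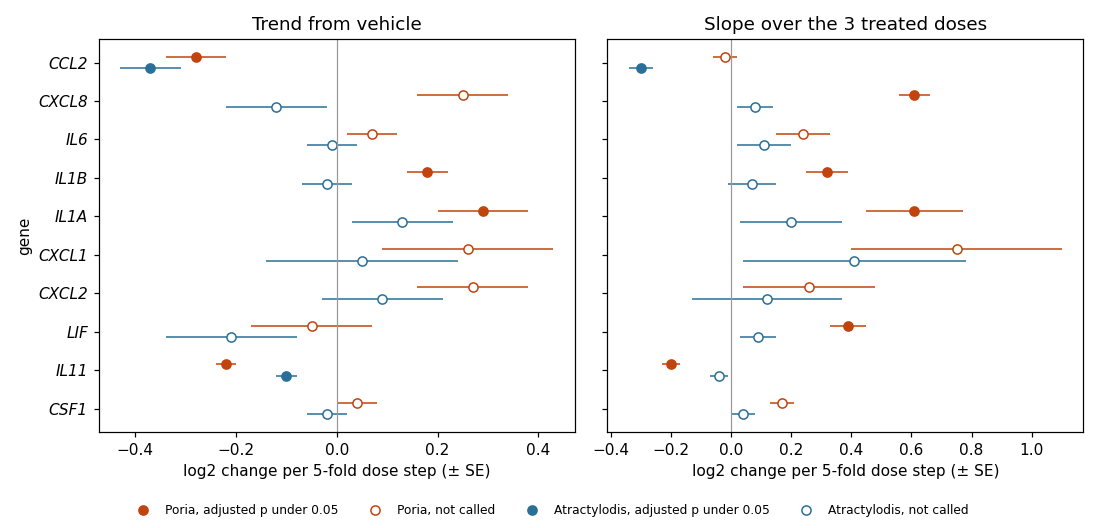
log2 change per 5-fold dose step (x axis, points, with bars of ± 1 SE) of each gene (y axis) for Poria and Atractylodis, from vehicle (left) and over the 3 treated doses alone (right). Filled points have an adjusted p under 0.05. CXCL8 stands at 0.61 for Poria and 0.08 for Atractylodis in the right panel, and CCL2 at -0.02 and -0.30.

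Complete separation of all 6 treated from all 3 vehicle libraries was seen for 3 members below vehicle, CCL2, IL11 and LIF, against 13.7% of genes tested, and for 0 above, against 12.4%. The log2 change of treated against vehicle and a gene's GC content had a Spearman correlation of -0.298 (across 18214 genes, which share the same libraries), and the slope over the Atractylodis doses one of -0.278. CCL2 has a GC content of 42.6%, IL11 of 55.6% and LIF of 56.9%, and CCL2 and IL11 were also called lower with the correction for GC content and length.

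Of 18 other chemokines, ligands of the same or related receptors, 10 were tested, and 0 were called in either trend with edgeR (2 in each at an unadjusted p under 0.05; 0 of 5 in DESeq2). Over all genes 9.16% rose and 11.6% fell in the Poria trend, and 8.49% and 10.5% in the Atractylodis trend, and the list was not tested against the members. CXCL16, a membrane-bound chemokine, was lower in treated libraries (24.5 ± 0.181 CPM in vehicle, 21.5 to 23.5 in treated; -0.13 ± 0.05, adjusted p = 0.044). It was the only 1 of the 10 called between treated and vehicle libraries with edgeR (4 at an unadjusted p under 0.05). Over all genes 12.0% rose and 13.3% fell there, so a count of 1 is near the background. CX3CL1, the ligand of microglial CX3CR1, was -0.23 ± 0.10 (adjusted p = 0.093). CXCL9 and CCL11 had 0 counts in all libraries, and CXCL10 and CXCL11, which interferon induces, had at most 3 counts.

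Of 20 other cytokines, 17 were tested. In the Poria trend 0 rose and 3 fell (background 9.16% and 11.6% of genes). In the Atractylodis trend 1 rose and 3 fell (background 8.49% and 10.5%). Between treated and vehicle libraries 2 rose and 5 fell (background 12.0% and 13.3%), with a list median of 0.10. IL32, a proinflammatory cytokine, went from 8.48 ± 0.0722 CPM in vehicle to 6.79, 6.09 and 6.03 CPM with Poria (trend -0.17 ± 0.04, adjusted p = 0.0025). Over the treated Poria doses alone its slope was -0.08 ± 0.06 (edgeR adjusted p = 0.58). IL34, the other ligand of the CSF1 receptor, was lower in treated libraries (-0.64 ± 0.17, adjusted p = 0.0087), from 1.22 ± 0.207 CPM to between 0.621 and 0.897 CPM. IL23A was called lower in the Atractylodis trend (-1.10 ± 0.26 per step, adjusted p = 0.0075) but rests on 1 to 16 counts per library. It stood at 0.286 ± 0.105 CPM in vehicle, and all treated libraries, at 0.023 to 0.157 CPM, lay under the filter's minimum count of 10. IL23A thus passed the filter through vehicle libraries alone, which favours a fall, so this call is not read as a response. TNF and OSM, both strong inducers of the members, had at most 4 and 2 counts in any library.

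Of 21 receptors and antagonists, 16 were tested. In each trend 2 rose and 0 fell (background 9.16% and 11.6% of genes for Poria, 8.49% and 10.5% for Atractylodis). Between treated and vehicle libraries 2 rose and 1 fell (background 12.0% and 13.3%). IL1R1, the signalling receptor of interleukin 1, rose with Poria from 44.4 ± 1.58 CPM in vehicle to 46.1, 48.8 and 55.0 CPM (trend 0.10 ± 0.02, adjusted p = 0.0018) and stood at 43.2 to 44.5 CPM with Atractylodis. Its slopes differed between extracts (-0.10 ± 0.02, adjusted p = 0.030). IL13RA1 rose in both trends (0.08 ± 0.02 and 0.06 ± 0.02, adjusted p = 0.0064 and 0.033), and IL6R in the Atractylodis trend (0.21 ± 0.07, adjusted p = 0.033). IL6R lay at 1.79 to 3.20 CPM. Over the treated doses alone the IL13RA1 slopes were 0.02 and 0.04 (edgeR adjusted p = 0.76 and 0.47). The IL6R slope over the treated Atractylodis doses was 0.12 (adjusted p = 0.66). The receptor chains of the IL-6 family were abundant: IL6ST lay between 579 and 656 CPM, OSMR between 210 and 262 CPM and LIFR between 79.4 and 92.7 CPM. The trends of these 3 had adjusted p-values of 0.070 or more. CSF1R, the CSF1 receptor and also 1 of the myeloid markers above, lay between 2.27 and 3.40 CPM.

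Of the 19 NF-kB pathway genes, all tested, 3 rose and 5 fell in the Poria trend (background 9.16% and 11.6% of genes). In the Atractylodis trend 1 rose and 7 fell (background 8.49% and 10.5%). Between treated and vehicle libraries 1 rose and 8 fell (background 12.0% and 13.3%), with a list median of -0.07. RELA, the main activating subunit, was lower in treated libraries (90.9 ± 3.19 CPM in vehicle, 71.8 to 81.4 in treated; -0.26 ± 0.04, adjusted p = 0.0003). BCL3, a nuclear cofactor of the pathway, was lower by a like amount (-0.27 ± 0.04, adjusted p = 0.00032). The 8 called lower also held NFKBIB (-0.24, adjusted p = 0.002), NFKBIE (-0.28, adjusted p = 0.002) and TNFAIP3 (-0.17, adjusted p = 0.018). The 1 called higher was CHUK (0.19, adjusted p = 0.0019). IRAK1, a kinase below the interleukin 1 receptor, fell in the Poria trend (-0.09 ± 0.02, adjusted p = 0.00065). Over the treated Poria doses 0 of the 19 genes were called with edgeR (4 at an unadjusted p under 0.05; 1 of 15 in DESeq2), where 1.2% of all genes rose and 1.25% fell, so a count of 0 is near the background.

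The 15 genes of AP-1, C/EBP and STAT3 signalling were all tested. In the Poria trend 1 rose and 2 fell (background 9.16% and 11.6% of genes). In the Atractylodis trend 1 rose and 5 fell (background 8.49% and 10.5%). Between treated and vehicle libraries 2 rose and 7 fell (background 12.0% and 13.3%), with a list median of -0.15. JUNB, an AP-1 subunit, was lower in treated libraries (-0.29 ± 0.04, adjusted p = 0.00018), as was CEBPD, a C/EBP factor that activates IL6 (-0.29 ± 0.07, adjusted p = 0.0033). JAK2, a kinase of the pathway, was higher (0.22 ± 0.05, adjusted p = 0.0023).

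Of 10 genes that act on decay of cytokine mRNA, 1 rose and 1 fell in the Poria trend (background 9.16% and 11.6%). In the Atractylodis trend 1 rose and 4 fell (background 8.49% and 10.5%). Between treated and vehicle libraries 1 rose and 5 fell (background 12.0% and 13.3%), with a list median of -0.14. KHSRP, which promotes decay of AU-rich mRNA, was lower in treated libraries (227 ± 6.22 CPM in vehicle, 178 to 208 in treated; -0.23 ± 0.04, adjusted p = 0.00073), and ZFP36L2, another such protein, was lower as well (-0.20 ± 0.05, adjusted p = 0.0077). AUH, an AU-binding mitochondrial enzyme, was higher (0.39 ± 0.09, adjusted p = 0.0035).

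Of 10 genes of interleukin 1 processing and release, 0 rose and 2 fell in the Poria trend (background 9.16% and 11.6%). In the Atractylodis trend 1 rose and 1 fell (background 8.49% and 10.5%). Between treated and vehicle libraries 2 rose and 1 fell (background 12.0% and 13.3%), with a list median of -0.05. CASP1, the protease that cuts the IL1B precursor, was higher in treated libraries (5.42 ± 0.276 CPM in vehicle, 6.12 to 7.24 in treated; 0.28 ± 0.08, adjusted p = 0.0092), and NLRP1, an inflammasome sensor, was lower (-0.26 ± 0.05, adjusted p = 0.002). CAPN1, a calpain, the enzyme class that cuts the IL1A precursor, fell in the Poria trend (-0.06 ± 0.02, adjusted p = 0.017).

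Of 15 inflammatory effectors, which many of the members' pathways switch on, 13 were tested. In the Poria trend 1 rose and 2 fell (background 9.16% and 11.6% of genes). In the Atractylodis trend 2 rose and 4 fell (background 8.49% and 10.5%). Between treated and vehicle libraries 0 rose with edgeR (0 at an unadjusted p under 0.05 as well, background 12.0%). There 2 fell (background 13.3%), and the list median was -0.06. BIRC3, an NF-kB target that blocks cell death, went from 14.7 ± 0.961 CPM in vehicle to 10.3, 10.2 and 8.44 CPM with Atractylodis. Its trend there was -0.25 ± 0.04 (adjusted p = 0.0008), and its slope over the treated doses alone -0.14 ± 0.06 (edgeR adjusted p = 0.21). With Poria, BIRC3 stood at 12.2, 12.7 and 14.1 CPM. The difference of its slopes from vehicle was -0.23 ± 0.04 (adjusted p = 0.018). PLAU, urokinase, rose over the treated Poria doses (107, 117 and 129 CPM; 0.13 ± 0.03, adjusted p = 0.0065) and fell over the treated Atractylodis doses (108, 98.6 and 94.4 CPM; -0.10 ± 0.03, adjusted p = 0.046), from 137 ± 1.71 CPM in vehicle. TNFAIP2, induced by tumour necrosis factor, fell in the Atractylodis trend (-0.09 ± 0.02, adjusted p = 0.017).

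**Figure D4:**
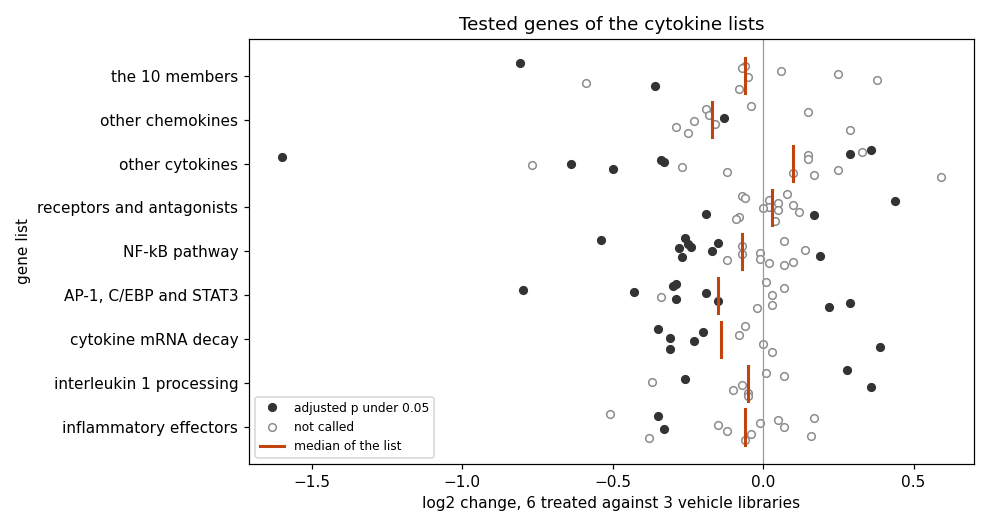
log2 change between the 6 treated and 3 vehicle libraries (x axis) for every tested gene of the members and the 8 pathway lists (rows), filled where the adjusted p was under 0.05, with the list's median as a bar. CCL2 (-0.81) and IL11 (-0.36) are the filled points of the 10 members, and the medians of the lists plotted, which leave out the cell type markers, lie between -0.17 and 0.10.

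The genes whose level followed a member's most closely were sought for the 2 members with the highest mean CPM, over 9 libraries and among 11563 genes whose log2 CPM averaged 2 or more. For IL11 these were SSBP3 (Pearson correlation of log2 CPM 0.991), BMP1 (0.989) and DSP (0.989). For CSF1 they were MIEF1 (0.938), ARHGAP44 (0.931) and STARD10 (0.929). These are descriptions over libraries that share their treatment groups and their normalization.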

How the data were processed

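The authors deposited 1 table of RSEM expected counts for all genes, without normalization; the submitters' processing notes name FastQC 0.11.9, Trim Galore 0.6.5, STAR 2.7.3a, RSEM 1.3.3 and hg38, and the annotation release and the use of strand in counting are not given in the sources used here. Expected counts were rounded to whole numbers. The table holds 279 columns of values, of which 270 belong to none of the 9 libraries and were not used. Symbols and positions came from GENCODE 29 (57055 of 60675 identifiers matched).

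Genes were kept with edgeR's filterByExpr (minimum count 10, total 15). With groups of 1 library, a gene can pass through a single library. Libraries were scaled by TMM, and CPM values use TMM-scaled library sizes. edgeR 4.0.16 in R 4.3.3 (robust quasi-likelihood) fitted the trends, the treated doses with vehicle apart, treated against vehicle, and 7 groups, with 6, 4, 7 and 2 residual degrees of freedom. Adjusted p-values are Benjamini-Hochberg over 18356 genes. DESeq2 1.42.0 was an alternative, and an adjusted p it gave as NA was left out. Of the fits, the trends alone were run on simulated data, with 1 fixed spread for all genes, and recovery was scored for the Poria trend. The other fits were not run on simulated data. The members and the gene lists were chosen with earlier results of these data known. Named genes are the 10 members, up to 3 per other list with the smallest p over the trends, and the 3 genes most like each of 2 members. Receptors, ligands, further NF-kB pathway genes and genes at or near 0 that are named beside these were chosen after their values were seen. The difference of slopes over the treated doses alone was added after the data were seen. Precision is limited by 1 library per extract and dose.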

Additional observations from a re-analysis of the deposited data

Results flagged for a closer look

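The difference between the extracts' slopes (Atractylodis minus Poria, log2 per 5-fold dose step, edgeR) was searched for calls in unequal sets. Slopes from vehicle were searched over the members and the named list genes, and slopes over the treated doses over the 10 members alone. Calls of other lists in the second fit, such as 3 of 13 inflammatory effectors, are thus left out. Over all genes, 0.676% differed upward and 0.485% downward from vehicle, and 0.594% and 0.567% over the treated doses. The search picked out 6 values. With slopes set from vehicle these were IL11 at 0.12, IL1R1 at -0.10, BIRC3 at -0.23 and KRT18, an epithelial keratin among the markers, at -0.16 (adjusted p = 0.035). With slopes set by the treated doses alone they were CCL2 at -0.28 and CXCL8 at -0.53. Each rests on 1 library per extract and dose, and the reason for the differences was not tested.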

How the results depend on the processing

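Of 1190 values of single members under other settings, 1122 kept their side of the threshold, and their direction where called, 35 lost a call, 33 gained one, and 0 were called with the opposite sign.

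With dose in place of dose step, genes called went from 3815 to 125 for the Poria trend and from 3495 to 67 for the Atractylodis trend, and members called from 4 and 2 to 0 in both (6 and 1 at an unadjusted p under 0.05). With DESeq2, genes called went from 213 to 339 for the slope difference (members 1 to 2, of 5 with an adjusted p), from 449 to 240 over the treated Poria doses, from 5788 to 1483 at Poria 500 and from 5692 to 1579 at Atractylodis 500 µg/mL, and for the slope difference over treated doses 1 member, LIF, of 3 with an adjusted p was called. Without the low-count filter they were 555 (members 2) for the slope difference, 685 over the Poria doses and 482 (members 4, main 213 genes and 2 members) for the slope difference over treated doses. With the GC content and length correction, 488 genes in place of 742 were called over the Atractylodis doses, and 2 members for the slope difference.

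Leaving out 1 library at a time, genes called for the Atractylodis trend ranged from 1035 (without Atractylodis 500) to 4297 (members 1 to 2), for the slope difference from 0 to 300 (members 0 to 2), for treated against vehicle from 2986 (without vehicle 1; main 4639) to 5353 (members 1 to 4), over the Poria doses from 16 (without Poria 500) to 657 (members 0 to 6), over the Atractylodis doses from 102 (without Atractylodis 20) to 1196 (without Atractylodis 100), and for the slope difference over treated doses from 21 (without Poria 500) to 446 (without Atractylodis 100; members 0 to 4). Members called in the Poria trend ranged from 2 (without Poria 500) to 5. The slope difference called 0 genes with edgeR without Poria 500 or Atractylodis 500 µg/mL (1386 and 1407 at an unadjusted p under 0.05). No paired analysis was possible because vehicle and treated groups share only 1 replicate number.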
